A study of Mus musculus with 2 samples.

Results

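Among sorted nuclei of the mouse spinal dynorphin lineage, 720 inhibitory nuclei carried at least 2 unique molecular identifiers (UMIs) of the galanin gene Gal and no UMI of Pdyn, the prodynorphin gene. They were 283 nuclei of the injured library and 437 of the naive library, 9.46% of the 7610 nuclei in all and 17.6% of the 4082 inhibitory nuclei. A nucleus counted as inhibitory when it held at least 2 UMIs over Gad1, Gad2, Slc32a1 and Slc6a5 and none of Slc17a6, the vesicular glutamate transporter. The Gal-rich Pdyn-zero nuclei also had to hold fewer than 20 UMIs of Alk, a receptor tyrosine kinase gene. These counts chose the nuclei, so the levels of those 8 genes are given as a description, with no test. The remaining 3362 inhibitory nuclei, 1642 injured and 1720 naive, are called the other inhibitory nuclei.

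Each library held nuclear RNA of 8 pooled adult mice of either sex, measured with droplet 3' sequencing (10x Genomics, version 3 chemistry). The injured mice had a surgical incision of the left plantar hindpaw at postnatal day 3, and the naive mice were littermates exposed to isoflurane alone at that age. All mice of both libraries carried 1 copy of Pdyn-IRES-Cre, which drives Cre recombinase from the prodynorphin gene, and 1 copy of R26-LSL-Sun1.eGFP, a reporter that Cre turns on and that marks the nuclear envelope green. Nuclei were sorted on that fluorescence from lumbar (L3-L5) dorsal cord, so that a nucleus marks a cell that had Cre at some time in its life, whether or not Pdyn RNA was there at collection. With 1 pooled library a group, no difference between injured and naive has a replicate check, and mice cannot be told apart within a pool.

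Galanin is a peptide released with GABA or glycine from a group of inhibitory interneurons in the superficial dorsal horn, and it acts on the receptors encoded by Galr1, Galr2 and Galr3. In rodents many galanin interneurons also make dynorphin, and they are set apart there from the inhibitory interneurons that make neuropeptide Y, neuronal nitric oxide synthase or parvalbumin. The somatostatin receptor encoded by Sstr2 is found on inhibitory rather than excitatory cells of these laminae.

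The promoter windows of Gal and Pdyn, the genes that set the nuclei apart, and of Sstr2, the receptor gene described below as higher in them, are shown here from RefSeq on build GRCm38.p6 (250 bases before to 50 bases after the start of the gene). Capitals mark TGACGTCA, the cyclic AMP response element, or its short form TGACG, searched on both strands.
Gal, chr19:3414495-3414794 (- strand): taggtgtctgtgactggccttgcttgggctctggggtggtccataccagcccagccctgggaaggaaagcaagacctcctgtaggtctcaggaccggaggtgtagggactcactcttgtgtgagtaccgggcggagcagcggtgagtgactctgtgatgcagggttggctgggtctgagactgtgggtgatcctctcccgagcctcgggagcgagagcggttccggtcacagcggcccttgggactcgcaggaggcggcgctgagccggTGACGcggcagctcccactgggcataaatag
Pdyn, chr2:129699889-129700188 (- strand): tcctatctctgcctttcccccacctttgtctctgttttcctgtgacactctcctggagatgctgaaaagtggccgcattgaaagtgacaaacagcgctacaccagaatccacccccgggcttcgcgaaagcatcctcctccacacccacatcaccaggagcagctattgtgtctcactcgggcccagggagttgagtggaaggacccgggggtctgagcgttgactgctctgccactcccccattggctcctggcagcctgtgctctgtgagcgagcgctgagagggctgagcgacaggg
Sstr2, chr11:113619077-113619376 (+ strand): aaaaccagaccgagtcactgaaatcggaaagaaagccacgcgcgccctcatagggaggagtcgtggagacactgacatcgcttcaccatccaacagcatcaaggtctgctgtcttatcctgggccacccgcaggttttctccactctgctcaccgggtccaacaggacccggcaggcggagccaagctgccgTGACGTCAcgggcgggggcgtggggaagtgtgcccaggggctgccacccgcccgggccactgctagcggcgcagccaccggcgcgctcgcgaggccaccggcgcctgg
The Sstr2 window held TGACGTCA, a motif in 1.79% of all 32851 promoter windows, and the short form there lies within it. The Gal window held TGACG 19 bases after the start, and 20.8% of all windows held it on either strand. The Pdyn window held neither, and Pdyn had a further annotated start whose window is not shown. None of the 3 held TATAAA, which 13.6% of all windows did. These matches describe letters and no binding was measured.

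Galanin RNA was low in number and high in share. The median nucleus among the Gal-rich Pdyn-zero nuclei held 3 Gal UMIs in the injured and 2 in the naive library, and the highest held 10 and 13. Nuclei at the threshold, with exactly 2 Gal UMIs, were 46.3% of the injured and 51.3% of the naive ones, and 317 injured and 386 naive nuclei of the same kind lay just below it with 1 Gal UMI. Summed over nuclei and scaled to a total of 1000000 UMIs (CPM), Gal stood at 354 CPM in injured and 422 CPM in naive Gal-rich Pdyn-zero nuclei, against 65.3 CPM in injured and 96.1 CPM in naive other inhibitory nuclei. Gal lies at chr19:3409915-3414544 on the minus strand (mm10).

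The enzymes of GABA synthesis were at like levels in both sets. Gad1 was at 128 CPM in injured and 149 CPM in naive Gal-rich Pdyn-zero nuclei, and at 128 and 162 CPM in the other inhibitory nuclei. Gad2 was at 193 and 185 CPM, against 191 and 194 CPM. Slc32a1, the vesicular transporter of GABA and glycine, was at 73.9 and 95.3 CPM, against 58.2 and 86.2 CPM. Slc6a5, the glycine transporter of glycinergic terminals, had the other order, with 72.2 CPM in injured and 101 CPM in naive Gal-rich Pdyn-zero nuclei, against 156 and 146 CPM. A Slc6a5 UMI was found in 39.2% of injured and 44.2% of naive Gal-rich Pdyn-zero nuclei, against 61.8% and 57.7% of the other inhibitory nuclei. Alk was at 249 and 220 CPM in Gal-rich Pdyn-zero nuclei, where the rule caps it, against 538 and 283 CPM, and Pdyn at 0 by the rule, against 38.7 and 41.1 CPM. Gad1 and Slc32a1 had a UMI in 60.1% and 47.3% of the injured and in 63.8% and 51.5% of the naive Gal-rich Pdyn-zero nuclei. In the other inhibitory nuclei the shares were 61.4% and 41.0% in the injured and 64.9% and 48.2% in the naive library. The rule counts both genes, so these shares are no separate support for calling the nuclei inhibitory.

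Gal UMIs were also found in nuclei of other kinds, and whether they came from free RNA was not tested. Oligodendrocyte nuclei, which should lack Gal, held a Gal UMI in 7 of 55 injured and 6 of 45 naive nuclei, and none held 2, which allows shares of up to 5.45% and 6.67%. Their median depth was 2833 and 2195 UMIs, against 7637 and 6540 UMIs in the Gal-rich Pdyn-zero nuclei. Excitatory nuclei, at median depths of 10573 and 8937 UMIs, held at least 2 Gal UMIs in 1.68% (8 of 475) of the injured and 5.37% (26 of 484) of the naive nuclei. The same count was reached by 24.0% of injured and 29.9% of naive inhibitory nuclei, at median depths of 8271 and 6931 UMIs.

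Markers of other cells were detected in both sets. Summed over 6 oligodendrocyte markers the Gal-rich Pdyn-zero nuclei held 226 CPM in the injured and 143 CPM in the naive library, against 224 and 139 CPM in the other inhibitory nuclei, and all 6 were detected. Astrocyte markers summed to 31.4 and 48.5 CPM, against 53.8 and 52.1 CPM, with Gja1 at 0 in the naive Gal-rich nuclei. Microglia markers summed to 55.2 and 83.7 CPM, against 75.1 and 77.8 CPM. The 3 markers of cerebrospinal fluid-contacting neurons (Pkd2l1, Pkd1l2 and Myo3b) summed to 8.50 and 44.0 CPM, against 212 and 281 CPM. The 3 Schwann cell markers summed to 3.40 and 4.20 CPM, against 5.13 and 22.8 CPM, and the 3 ependymal markers to 1.27 and 0.646 CPM, against 2.44 and 4.42 CPM. The 4 markers of oligodendrocyte precursors summed to 3.40 and 6.46 CPM, against 10.4 and 6.40 CPM. The part of these lists in the differences was not tested. Nuclei in which Xist and a Y-linked gene were both detected, which no mouse of either sex should give, were 5.65% of the injured and 5.03% of the naive Gal-rich Pdyn-zero nuclei. Whether doublets or free RNA take part in the differences given next was not tested beyond leaving those nuclei out. In the whole series the libraries held 32934588 (injured) and 30602222 (naive) UMIs, with medians of 8464 and 6955 UMIs a nucleus, and they shared 3 cell barcodes.

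A count of 0 Pdyn UMIs is a statement about detection. At least 1 Pdyn UMI was found in 33.3% (95% Clopper-Pearson interval 28.8 to 38.0) of the injured and 29.5% (26.0 to 33.3) of the naive inhibitory nuclei with 2 or more Gal UMIs and under 20 Alk UMIs. Among nuclei with 1 Gal UMI the shares were 21.5% and 21.2%, and among nuclei with none 12.29% and 12.01%. The order was the same among nuclei of 5000 to under 10000 UMIs, at 33.7%, 23.6% and 14.2% in the injured and 29.98%, 22.9% and 12.8% in the naive library. In oligodendrocyte nuclei 3 of 55 injured and 1 of 45 naive nuclei held a Pdyn UMI. The Gal-rich Pdyn-positive nuclei, 141 injured and 183 naive, held 350 and 470 CPM of Gal and 158 and 165 CPM of Pdyn. The Gal-rich Pdyn-zero nuclei were 69.0% of the Gal-rich inhibitory nuclei with under 20 Alk UMIs.

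All nuclei of both libraries were clustered by the genes that vary most, with neuropeptides, peptide receptors and the genes of the rule kept out, which gave 28 clusters, called here by number and leading genes and given no cell type name. Most Gal-rich Pdyn-zero nuclei lay in 3 clusters led by C1ql3 and Pde11a (cluster 0), Mlxipl and Chodl (cluster 4), and Foxo1 and Rspo3 (cluster 5). These took 65.4% (59.5 to 70.9) of the injured and 58.6% (53.8 to 63.2) of the naive nuclei. Of the Gal-rich Pdyn-positive nuclei they took 80.9% and 77.6%, and of the inhibitory nuclei with no Pdyn UMI and 0 or 1 Gal UMI (under 20 Alk UMIs, here called Gal-low Pdyn-zero) 16.0% and 13.5%. Cluster 3, led by Igf1 and Nox4, held a further 33 injured and 55 naive Gal-rich Pdyn-zero nuclei. Clusters 2 and 8, which Nos1, the gene of neuronal nitric oxide synthase, helps to lead, held 36 of 283 injured (12.7%) and 85 of 437 naive (19.5%) of them. Of the Gal-rich Pdyn-positive nuclei those 2 clusters held 2 of 141 injured (1.42%) and 7 of 183 naive (3.83%). The 6 clusters together took 89.8% and 90.6% of the Gal-rich Pdyn-zero nuclei, against 41.2% and 45.7% of the Gal-low Pdyn-zero nuclei.

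**Figure D1:**
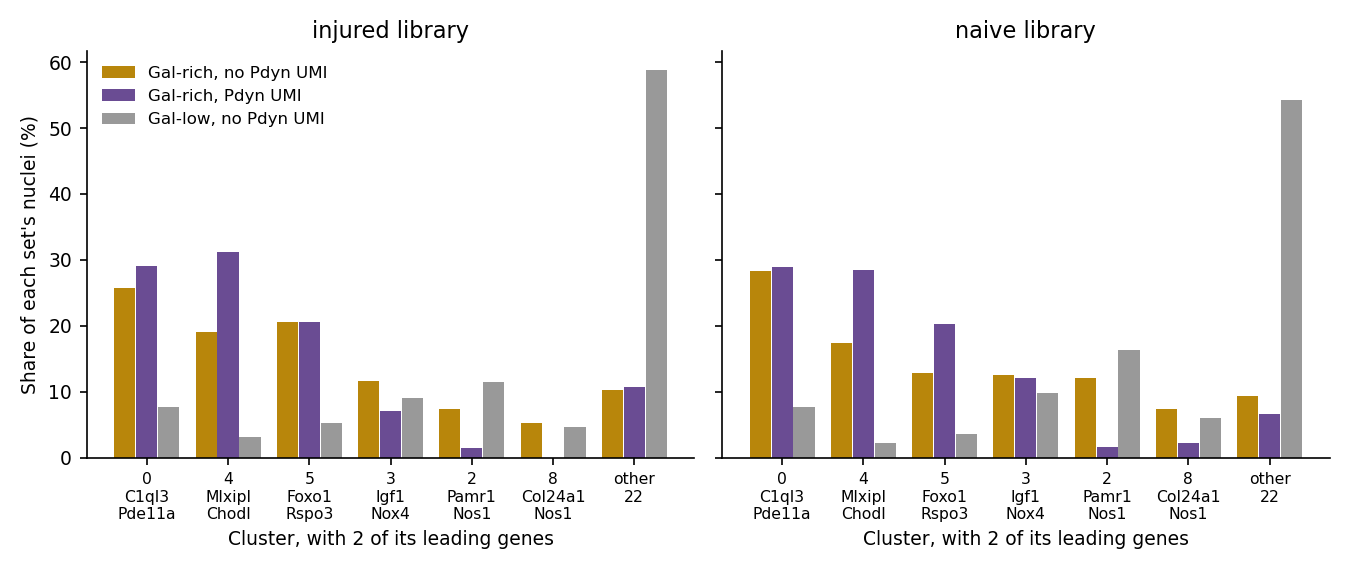
Share of nuclei (percent) that lay in each of 6 clusters and in all remaining clusters, in the injured (left) and naive (right) library; bars are Gal-rich Pdyn-zero nuclei, Gal-rich Pdyn-positive nuclei and Gal-low Pdyn-zero nuclei. Both Gal-rich sets were mainly in clusters 0, 4 and 5, and clusters 2 and 8 held 12.7% of the injured and 19.5% of the naive Gal-rich nuclei without a Pdyn UMI, against 1.42% and 3.83% of those with one.

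Peptide and receptor genes, which took no part in the clustering, had different levels in Gal-rich Pdyn-zero nuclei of different clusters. Penk, the enkephalin precursor, was at 7.14 CPM in injured and 15.6 CPM in naive nuclei of clusters 0, 4 and 5 and at 25.9 and 17.6 CPM in cluster 3. In clusters 2 and 8 it reached 111 and 150 CPM. A Penk UMI was held by 44.4% of the injured and 55.3% of the naive Gal-rich Pdyn-zero nuclei in clusters 2 and 8, against 4.32% and 9.38% of those in clusters 0, 4 and 5. Sstr2 had the other order, at 77.8 and 103 CPM in clusters 0, 4 and 5, 67.9 and 75.3 CPM in cluster 3 and 29.5 and 25.9 CPM in clusters 2 and 8. Tacr3, the neurokinin B receptor, was highest in cluster 3, at 284 and 196 CPM, with 167 and 150 CPM in clusters 2 and 8 and 92.8 and 94.7 CPM in clusters 0, 4 and 5. Pnoc, the nociceptin precursor, was at 89.2 and 117 CPM in clusters 0, 4 and 5, at 84.0 and 188 CPM in cluster 3 and at 124 and 187 CPM in clusters 2 and 8. Gal itself was at 409 and 518 CPM in clusters 0, 4 and 5, at 278 and 339 CPM in cluster 3 and at 295 and 312 CPM in clusters 2 and 8. Slc6a5 was at 51.4 and 60.5 CPM in clusters 0, 4 and 5, 110 and 133 CPM in cluster 3 and 94.98 and 137 CPM in clusters 2 and 8. No test was made between clusters, since their genes were chosen by the same nuclei.

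Set against the other inhibitory nuclei, the Gal-rich Pdyn-zero nuclei had more Sstr2, Rorb and Pnoc and less Npy, Tac2, Penk and Pvalb RNA, and the wider profile was high in Ankfn1, Gucy2d and Grin2c and low in Zfhx3, Rgs6 and Chrm2. Counts were summed per library and set, and both sets came from both of the 2 libraries. The quasi-likelihood test of edgeR compared the sets with the library as a block and 1 residual degree of freedom. At a Benjamini-Hochberg adjusted p of at most 0.05, 926 of 12720 genes (7.28%) were higher and 1244 (9.78%) lower in the Gal-rich Pdyn-zero nuclei. Of these calls, 2165 had the same direction in each library alone, and the median log2 difference over all genes was -8.2e-05. With the library as a block, a gene's own spread is how far the difference between the sets varied over 2 pooled libraries. The test draws that spread toward the spread of all genes, with a common dispersion of 0.00152. A small p-value therefore rests largely on summed counts and on other genes, and is not a replication of that gene. The p-values do not measure the spread between mice or pools. The calls numbered 230 and 366 with DESeq2, and 338 and 673 without the library block.

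Of 15 tested genes that mark inhibitory or other dorsal horn populations, 4 were higher and 4 lower, with a median log2 difference of -0.11. Over all genes tested, 7.28% were higher and 9.78% lower. Sstr2 (chr11:113619342-113626028) was at 65.4 CPM in injured and 72.4 CPM in naive Gal-rich Pdyn-zero nuclei, against 29.1 and 34.3 CPM in the other inhibitory nuclei. The ratios were 2.25 (1.86 to 2.71, counting error) in the injured and 2.11 (1.79 to 2.48) in the naive library, and the log2 difference was 1.14 (edgeR adjusted p = 3.86e-19). An Sstr2 UMI was held by 40.6% and 37.3% of the Gal-rich Pdyn-zero nuclei, against 21.1% and 19.7%, and by 27.8% and 29.6%, against 12.9% and 14.6%, when each nucleus was thinned to 5000 UMIs. Rorb (chr19:18930605-19111196), an orphan nuclear receptor of dorsal horn inhibitory neurons, was at 895 and 667 CPM, against 511 and 439 CPM (log2 0.73, edgeR adjusted p = 1.21e-28). Pnoc (chr14:65400673-65425472) was at 90.1 and 140 CPM, against 72.0 and 94.6 CPM (log2 0.48, edgeR adjusted p = 2.21e-07), and its groups overlapped across libraries but not within them. The Pnoc call was lost with DESeq2 and without the block. Cartpt, the CART peptide precursor, had the smallest of the 4 rises (log2 0.33, edgeR adjusted p = 0.0370), which was also lost with DESeq2 and without the block.

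Npy, Tac2, Pvalb and Penk were lower. Npy was at 5.10 CPM in injured and 10.7 CPM in naive Gal-rich Pdyn-zero nuclei, against 14.5 and 17.0 CPM in the other inhibitory nuclei (log2 -0.94, edgeR adjusted p = 0.000335). Tac2, the neurokinin B precursor, was at 10.2 and 5.49 CPM, against 27.1 and 28.4 CPM (log2 -1.85, edgeR adjusted p = 2.78e-15). Pvalb, the calcium-binding protein parvalbumin, was at 0.850 and 0.969 CPM, against 3.95 and 5.34 CPM (log2 -2.33, edgeR adjusted p = 0.000574). Its values in the Gal-rich Pdyn-zero nuclei are near the floor, from 2 UMIs in the injured and 3 in the naive library. Penk was at 27.2 and 51.1 CPM, against 37.8 and 65.6 CPM (log2 -0.38, edgeR adjusted p = 0.00955). The calls of Npy, Pvalb and Penk were lost with DESeq2, and within clusters 0, 3, 4 and 5 (described below) Npy stood at a log2 of 0.10 and Penk at 0.037. Nos1 did not pass the test, at 59.5 and 91.1 CPM against 52.3 and 81.2 CPM (log2 0.19, edgeR adjusted p = 0.164), nor did Sst (edgeR adjusted p = 0.397), Tac1 (edgeR adjusted p = 0.681) or Tacr1 (edgeR adjusted p = 0.246).

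Of the 10 genes with the highest difference, Ankfn1 (chr11:89390223-89777653), which encodes a protein of ankyrin repeats and a fibronectin domain, was the most abundant. It was at 2176 CPM in injured and 1582 CPM in naive Gal-rich Pdyn-zero nuclei, against 858 and 761 CPM in the other inhibitory nuclei. The ratios were 2.54 (2.45 to 2.62) and 2.08 (2.01 to 2.15), and the log2 difference was 1.22 (edgeR adjusted p = 1.1e-63). Gucy2d (chr7:98440416-98477479), a membrane guanylate cyclase, was at 157 and 148 CPM, against 66.7 and 63.5 CPM (log2 1.25, edgeR adjusted p = 1.1e-36). Grin2c, a subunit of NMDA-type glutamate receptors, was at 45.0 and 38.8 CPM, against 18.4 and 17.9 CPM, and C1ql3, a secreted synaptic protein, at 74.8 and 69.8 CPM, against 30.4 and 35.8 CPM. Eva1c, a cell-surface protein, was at 108 and 108 CPM, against 43.7 and 48.0 CPM. Secreted signals were among them too. Wnt4 was at 22.9 and 27.1 CPM, against 9.28 and 12.3 CPM, the cytokine gene Clcf1 at 14.0 and 16.8 CPM, against 6.58 and 5.64 CPM, and Tgfb1 at 22.1 and 17.1 CPM, against 9.41 and 8.46 CPM. Cecr2 (log2 1.19) and Cfap100 (log2 1.18) completed the 10.

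At the other end, the homeodomain factor Zfhx3 (chr8:107942644-108961630) was at 3.82 CPM in injured and 9.37 CPM in naive Gal-rich Pdyn-zero nuclei, against 69.4 and 56.4 CPM in the other inhibitory nuclei (log2 -3.14, edgeR adjusted p = 2.0e-41). Rgs6, which speeds the switch-off of G proteins, was at 20.8 and 38.8 CPM, against 234 and 206 CPM (log2 -2.80). The muscarinic receptor gene Chrm2 was at 18.3 and 27.1 CPM, against 138 and 123 CPM. A further 6 were Lypd6b (log2 -2.93), Ptprm (log2 -2.63), Sgcd (log2 -2.40), Zfpm2 (log2 -2.38), Nell1 (log2 -2.38) and Il1rapl2 (log2 -2.26). For each of these genes, higher and lower, the 4 values did not overlap between the sets. Their choice as the largest called differences with a like direction in both libraries all but sets this in advance.

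**Figure D2:**
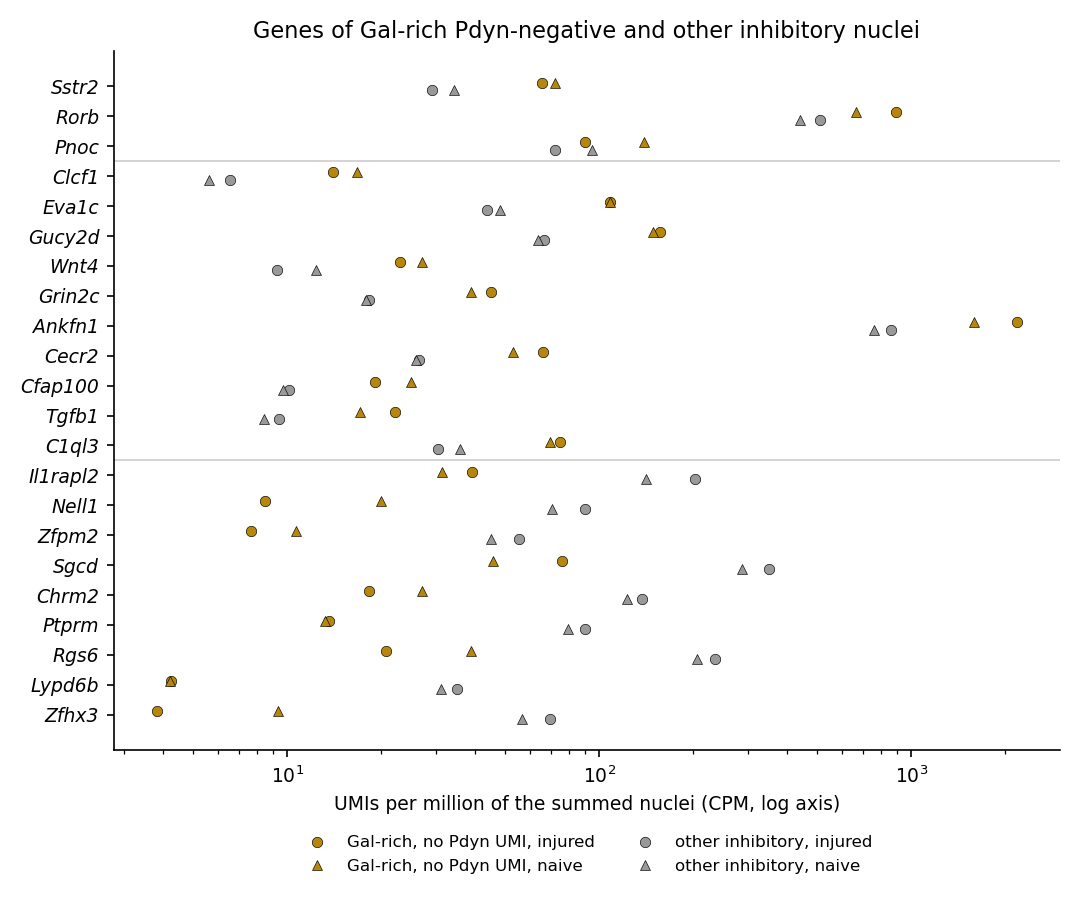
Level of 22 genes (CPM of the summed nuclei, log axis) in Gal-rich Pdyn-zero nuclei (gold) and other inhibitory nuclei (grey); circles are the injured and triangles the naive library, and lines part the population markers, the 10 highest genes and 9 of the lowest. Sstr2 was at 65.4 and 72.4 CPM against 29.1 and 34.3 CPM, and Zfhx3 at 3.82 and 9.37 CPM against 69.4 and 56.4 CPM.

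By function, receptors for neuropeptides gave 7 higher and 3 lower genes of 19 tested (median log2 -0.04). The shares over all 12720 genes were 7.28% higher and 9.78% lower. Sstr1, a further somatostatin receptor gene, was at 28.5 and 33.0 CPM, against 14.9 and 17.5 CPM (log2 0.94). Crhr1, the corticotropin-releasing hormone receptor gene, was at 71.8 and 72.4 CPM, against 39.6 and 42.1 CPM (log2 0.84), and Tacr3 at 120 and 113 CPM, against 73.3 and 79.7 CPM (log2 0.62). Oprm1, the mu opioid receptor gene, was lower, at 102 and 111 CPM against 126 and 141 CPM (log2 -0.31, edgeR adjusted p = 0.00108), a call lost with DESeq2 and without the block. Of 7 opioid genes tested 1 was higher (Pnoc) and 2 were lower (Penk and Oprm1), with a median of -0.31. Galanin's own receptors were close to 0. In injured and naive Gal-rich Pdyn-zero nuclei Galr1 gave 3 and 1 UMIs and Galr2 1 and 0, and Spx, a related peptide, 5 and 14.

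Transcription factors of the dorsal horn were lower more often than higher. Of 44 tested, 7 were higher and 21 lower, with a median log2 of -0.38, and adhesion and guidance genes gave 13 higher and 35 lower of 62 (median -0.27). Calls over all 12720 genes also leaned lower, with 7.28% higher and 9.78% lower. Ebf1, an early B-cell factor family member, was among the higher, at 4032 and 3929 CPM against 2399 and 2309 CPM (log2 0.78). Meis2 was among the lower, at 3.40 and 16.2 CPM against 74.1 and 77.3 CPM (log2 -2.83). Pax5 was near its floor, at 0 CPM in injured and 0.323 CPM in naive Gal-rich Pdyn-zero nuclei, against 5.86 and 5.72 CPM. The adhesion genes Cntn5 (log2 -2.18) and Cdh12 (log2 -2.04) were lower and the guidance gene Sema5a higher, at 431 and 374 CPM against 225 and 222 CPM.

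Ion channel and receptor genes moved in both directions. Beside the counts of each list stand 7.28% higher and 9.78% lower over all 12720 genes. Potassium channels gave 10 higher and 14 lower of 37, with Kcnt2 at 2124 and 1845 CPM against 1205 and 1093 CPM (log2 0.81) and Kcnh8 lower (log2 -1.35). Sodium and calcium channels gave 5 higher and 8 lower of 21. Glutamate receptors gave 11 higher and 8 lower of 23, with Grin2d (log2 0.67) higher and Grid1 (log2 -1.47) lower. GABA and glycine receptors gave 2 higher and 8 lower of 18, with Gabrg1 at 138 and 137 CPM against 88.2 and 87.0 CPM and Gabra5 at 16.1 and 12.6 CPM against 36.2 and 32.2 CPM. Within clusters 0, 3, 4 and 5 both turned, to a log2 of -0.12 for Gabrg1 and 0.26 for Gabra5. Genes that process and store peptides gave 6 higher and 5 lower of 24. Among them Scg2, secretogranin II, was at 611 and 704 CPM against 381 and 509 CPM (log2 0.59), and Vgf at 10.2 and 22.6 CPM against 26.5 and 31.9 CPM (log2 -0.78), which was lost with DESeq2. Receptors of serotonin and noradrenaline gave 2 higher and 5 lower of 11. No immediate early gene of 11 passed the test, 2 of 10 heat shock genes were higher, and 3 of 23 genes of oxidative phosphorylation were lower. With so few genes, these counts are not read as results about the lists. Of 6 sex-linked genes Xist (log2 0.29) and its antisense Tsix (log2 0.35) were higher.

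Position among the clusters moved with these differences. When both sets were kept to clusters 0, 3, 4 and 5, a choice made after the clusters had been seen, the calls were 35 higher and 75 lower of 9958 genes, of which 25 and 48 were also called over all clusters. Ankfn1 (log2 0.22, edgeR adjusted p = 2.16e-06) and Eva1c (log2 0.36, edgeR adjusted p = 0.00809) kept their calls there, and so did Vgf (log2 -1.26, edgeR adjusted p = 0.00280). Sstr2 (log2 0.32, edgeR adjusted p = 0.169), Rorb (log2 0.09, edgeR adjusted p = 0.650) and Gucy2d (log2 0.16, edgeR adjusted p = 0.525) did not pass the test. Of the genes called over all clusters and named above, the log2 value had the other sign there in Pnoc (-0.14), Cartpt (-0.21), Npy (0.10), Penk (0.037), Cdh12 (0.012), Gabrg1 and Gabra5. Foxo1, a forkhead factor, was at 24.6 and 30.5 CPM in Gal-rich Pdyn-zero nuclei of these clusters, against 20.6 and 11.9 CPM (log2 0.76, edgeR adjusted p = 0.0265), and Rspo3, a secreted enhancer of Wnt signals, was also higher (log2 0.35, edgeR adjusted p = 2.87e-05). The potassium channel gene Kcnq5 was lower there, at 142 and 127 CPM against 215 and 204 CPM (log2 -0.65, edgeR adjusted p = 1.86e-13). These last 3 genes were chosen after their values were seen. The make-up of the compared nuclei changed as well. In clusters 0, 3, 4 and 5, Gal-rich Pdyn-positive nuclei were 124 of 598 injured and 164 of 615 naive other inhibitory nuclei. Over all clusters they were 141 of 1642 and 183 of 1720. The part of this in the smaller differences was not tested.

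Levels by the Gal count of a nucleus are a description, since the genes were chosen for a difference across its threshold, and inside the set some had no single direction. Among inhibitory nuclei without a Pdyn UMI, Ankfn1 in the injured library was at 412 CPM at 0 Gal UMIs, 1113 at 1, 1731 at 2, 2476 at 3, 2675 at 4 and 2736 CPM at 5 to 9. In the naive library it was at 348, 787, 1304, 1697, 1820 and 2291 CPM over the same steps. Gucy2d was at 140 CPM at 2 and 248 CPM at 5 to 9 Gal UMIs in the injured library, and at 124 and 228 CPM in the naive library. Rgs6 was highest at 0 Gal UMIs in both libraries. It was at 316 CPM at 0, 37.5 CPM at 2, 6.78 CPM at 3, 3.41 CPM at 4 and 5.52 CPM at 5 to 9 Gal UMIs in the injured library. In the naive library it was at 299, 62.4, 10.0, 0 and 35.7 CPM, the last from 13 UMIs. Nos1 had no single direction, at 74.2 CPM at 2 and 38.6 CPM at 5 to 9 Gal UMIs in the injured library, and at 102 CPM at 2, 133 CPM at 3 and 24.7 CPM at 5 to 9 in the naive library. Cfap100 in the injured library was at 19.7 CPM at 2, 25.8 CPM at 3, 6.82 CPM at 4 and 5.52 CPM at 5 to 9 Gal UMIs. Sgcd in the naive library was at 55.5 CPM at 2 and 77.0 CPM at 5 to 9. The class of 5 to 9 UMIs held 24 injured and 49 naive nuclei, and a nucleus with 1 Gal UMI can hold it from free RNA.

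**Figure D3:**
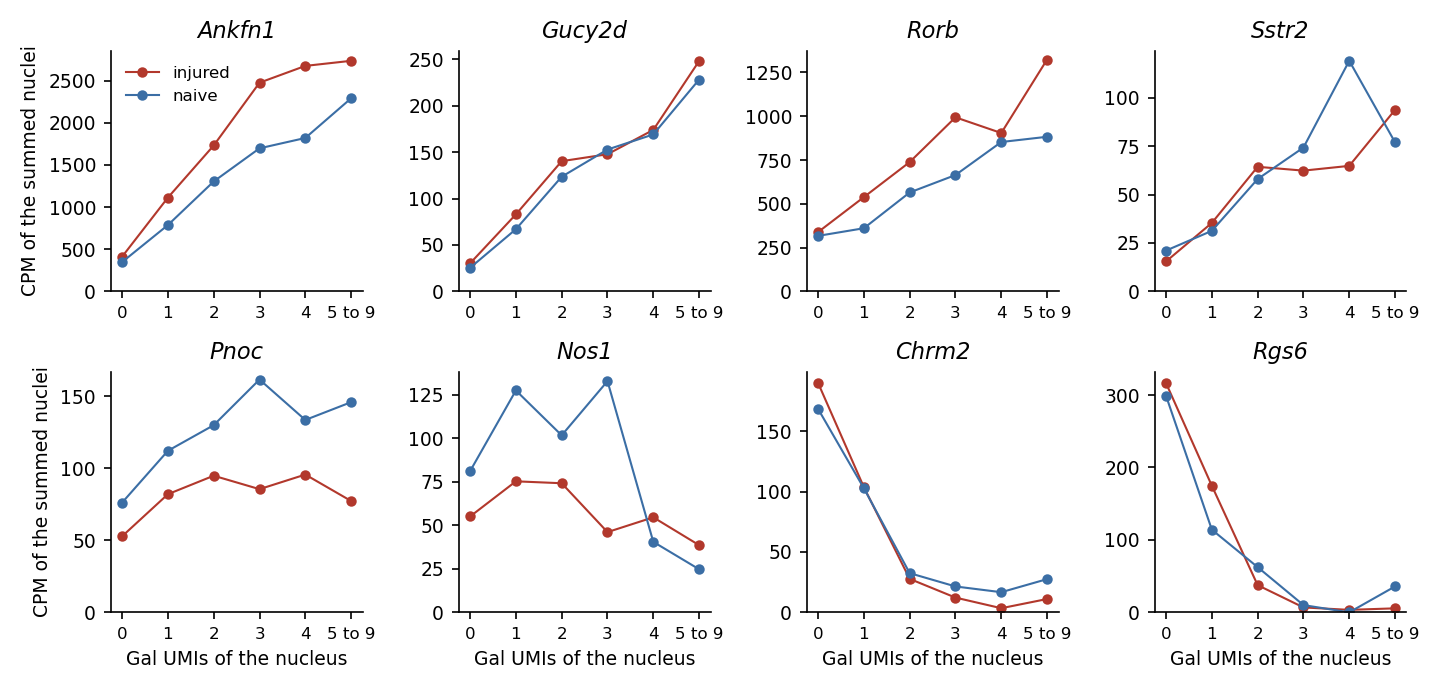
Level (CPM of the summed nuclei) of 8 genes against the Gal UMIs of the nucleus, in inhibitory nuclei with no Pdyn UMI and under 20 Alk UMIs; red is the injured and blue the naive library, and the Gal-rich nuclei start at 2. Ankfn1 climbed to 2736 CPM in the injured and 2291 CPM in the naive library at 5 to 9 UMIs, while Rgs6 was at 316 and 299 CPM at 0 UMIs.

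The Gal-low Pdyn-zero nuclei, 1216 injured and 1280 naive, differ by rule in the Gal count alone. Against them 1281 of 12233 genes (10.5%) were higher and 1578 (12.9%) lower in the Gal-rich Pdyn-zero nuclei by edgeR's quasi-likelihood test with Benjamini-Hochberg adjustment, and 378 and 501 with DESeq2. This comparison shares its Gal-rich nuclei with the one above, and its compared nuclei are part of the other inhibitory nuclei. Pde11a, a phosphodiesterase of cyclic nucleotides, was at 877 CPM in injured and 701 CPM in naive Gal-rich Pdyn-zero nuclei, against 275 and 198 CPM in Gal-low Pdyn-zero nuclei (log2 1.77). Mlxipl, a carbohydrate-response factor, was at 66.3 and 60.1 CPM, against 17.1 and 16.8 CPM (log2 1.92). Sstr2 was at 65.4 and 72.4 CPM, against 20.5 and 24.1 CPM (log2 1.65). Otof, the otoferlin gene, was at 2.55 and 3.55 CPM, against 21.7 and 26.4 CPM (log2 -2.93), and Myo3b, a marker of cerebrospinal fluid-contacting neurons, at 5.95 and 13.9 CPM, against 90.5 and 113 CPM (log2 -3.29). Nos1 was at 59.5 and 91.1 CPM, against 60.1 and 94.9 CPM (log2 -0.02, edgeR adjusted p = 0.942). Kept to clusters 0, 3, 4 and 5, the calls were 140 higher and 221 lower.

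The nearest comparison is with the Gal-rich Pdyn-positive nuclei, which differ by rule in the Pdyn count alone. Fewer genes were called, and those higher in the Gal-rich Pdyn-zero nuclei included Nos1, Egfem1, Tmem200a and Kcnn2. By edgeR's quasi-likelihood test with Benjamini-Hochberg adjustment, 175 of 8713 genes (2.01%) were higher and 97 (1.11%) lower, 3.12% in all, with 16 and 2 by DESeq2 and 66 and 6 without the library block. In nuclei with Y-linked but no Xist UMIs the calls were 42 and 13 of 4361 genes. In nuclei with Xist but no Y-linked UMIs they were 195 and 116 of 6600. Sums of 141 injured and 183 naive Gal-rich Pdyn-positive nuclei set the precision here.

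Nos1 (chr5:117781032-117958840) was at 59.5 CPM in injured and 91.1 CPM in naive Gal-rich Pdyn-zero nuclei, against 11.3 and 20.4 CPM in Gal-rich Pdyn-positive nuclei. The ratios were 5.27 (3.04 to 9.89) and 4.47 (3.03 to 6.85), and the log2 difference was 2.25 (edgeR adjusted p = 1.14e-23). Kcnn2, a calcium-activated potassium channel, was at 148 and 176 CPM, against 54.0 and 72.8 CPM (log2 1.35, edgeR adjusted p = 6.24e-23). Egfem1 was at 96.0 and 97.9 CPM, against 23.4 and 43.7 CPM, and Tmem200a, a membrane protein gene, at 50.6 and 72.4 CPM, against 14.5 and 31.3 CPM. The other genes of the highest 10 were Mpp7, Scml4, Col19a1, Htr4, Adamtsl3 and Tpd52l1, with log2 differences of 1.43, 1.41, 1.39, 1.38, 1.31 and 1.22. The call of Tmem200a was lost with DESeq2, and those of Col19a1, Htr4, Adamtsl3 and Tpd52l1 without the block. Nos1 and Tmem200a are leading genes of cluster 2, and clusters 2 and 8 held the shares of each set given above. Within clusters 0, 3, 4 and 5 the calls were 18 higher and 11 lower of 7432 genes, of which 18 and 9 were also called over all clusters. Tmem200a (log2 1.17, edgeR adjusted p = 0.00338) was among them, Kcnn2 was not (log2 0.39, edgeR adjusted p = 0.778), and Nos1 had too few UMIs there to be tested.

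Among 4 opioid genes tested, 2 were higher and none lower (median log2 0.46, against -0.0036 over all genes). Of all 8713 genes, 2.01% were higher and 1.11% lower, which stands beside each count of a list here. Penk was at 27.2 CPM in injured and 51.1 CPM in naive Gal-rich Pdyn-zero nuclei, against 16.1 and 31.3 CPM in Gal-rich Pdyn-positive nuclei (log2 0.72, edgeR adjusted p = 0.0316), a call lost without the block. Oprm1 was at 102 and 111 CPM, against 62.0 and 72.8 CPM (log2 0.66, edgeR adjusted p = 0.000141), a call lost with DESeq2. Serotonin receptor genes gave all 3 higher calls among 7 receptor genes of the amines, with none lower. Htr4 was at 25.5 and 31.7 CPM, against 16.9 and 5.82 CPM, Htr7 at 80.3 and 97.6 CPM, against 50.8 and 49.5 CPM, and Htr2c at 519 and 553 CPM, against 396 and 333 CPM. Adhesion and guidance genes gave 16 higher and 5 lower of 59 (median 0.17), with the netrin receptor gene Dcc at 353 and 459 CPM, against 201 and 207 CPM, and the guidance cue gene Slit3 at 78.6 and 81.1 CPM, against 35.5 and 43.0 CPM. Glutamate receptors gave 4 higher and 2 lower of 22, with Grin2a at 101 and 101 CPM, against 66.9 and 54.6 CPM. The calls of Htr7, Htr2c and Grin2a were lost with DESeq2.

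Among the genes lower than in Gal-rich Pdyn-positive nuclei were 4 of 27 dorsal horn transcription factors, with none higher. Of all 8713 genes, 1.11% were lower and 2.01% higher. Rorb was at 895 CPM in injured and 667 CPM in naive Gal-rich Pdyn-zero nuclei, against 1026 and 1026 CPM (log2 -0.41, edgeR adjusted p = 1.14e-09). Meis1 was at 25.1 and 27.8 CPM, against 56.4 and 42.2 CPM (log2 -0.87), and Pbx3 at 9.35 and 13.6 CPM, against 25.8 and 32.0 CPM (log2 -1.32). Mlxipl was at 66.3 and 60.1 CPM, against 109 and 102 CPM (log2 -0.74). The calls of Rorb and Mlxipl were lost with DESeq2, and that of Rorb without the block. The other genes of the lowest 10 were Zfp521, Fgf9, Cfap61, Cyhr1, Ptchd2, Cgnl1, Xylt2 and Cpne4, the last at a log2 of -0.66, and of these Fgf9 (log2 -0.88) kept its call without the block. Sstr2 (log2 -0.08, edgeR adjusted p = 0.950) and Pnoc (log2 0.11, edgeR adjusted p = 0.870) did not pass the test, and no immediate early gene of 3 did.

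The share of the Gal-rich Pdyn-zero nuclei among inhibitory nuclei was 14.7% (283 of 1925, 95% Clopper-Pearson interval 13.1 to 16.4) in the injured library and 20.3% (437 of 2157, 18.6 to 22.02) in the naive library, a ratio of 0.726. The intervals do not overlap, but they cover the counting of nuclei and not the differences between mice, sorts or libraries. The injured library was deeper, and with every nucleus thinned to 5000 UMIs the shares were 10.0% and 16.0%, a ratio of 0.627; thinning left out 52 injured and 231 naive inhibitory nuclei, 6 and 58 of them Gal-rich Pdyn-zero. Nuclei with Xist UMIs only and nuclei with Y-linked UMIs only come from different mice of each pool. Their shares were 15.1% in injured and 19.4% in naive for Xist, and 13.4% in injured and 21.5% in naive for Y-linked genes. At 5 or more Gal UMIs the shares were 1.35% and 2.32%, a ratio of 0.583. Counting all Gal-rich nuclei whatever their Pdyn count gave 22.03% and 28.7%. By cluster, Gal-rich Pdyn-zero nuclei were 26.4% of injured and 36.5% of naive inhibitory nuclei in cluster 0, and cluster 4 had 31.0% and 42.2% and cluster 5 had 33.0% and 33.7%. Shares were lower in 3 further clusters, with 17.4% and 22.9% for cluster 3, 11.8% and 18.9% for cluster 2 and 18.8% and 25.0% for cluster 8. The small cluster 25, led by Npnt and Adamtsl2, had 36.8% of 19 injured and 42.9% of 21 naive inhibitory nuclei. In cluster 16, led by Il1rapl2 and Sox5, the injured share was the higher, at 25.9% of 27 injured and 21.4% of 28 naive inhibitory nuclei. So it was in cluster 26, with 3 of 18 injured and 0 of 6 naive. Gal was also lower in the injured library in the other inhibitory nuclei and in excitatory nuclei, the latter at 12.7 CPM in injured and 30.3 CPM in naive. Whether the Gal RNA of excitatory nuclei was free or their own was not tested. Oligodendrocyte nuclei stood at 28.4 CPM (11.4 to 58.6) in the injured and 47.5 CPM (17.4 to 103) in the naive library. Those values rest on 7 and 6 UMIs, and their intervals overlap. The part of these in the share was not tested, and fewer such cells and less Gal RNA in each cannot be told apart.

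**Figure D4:**
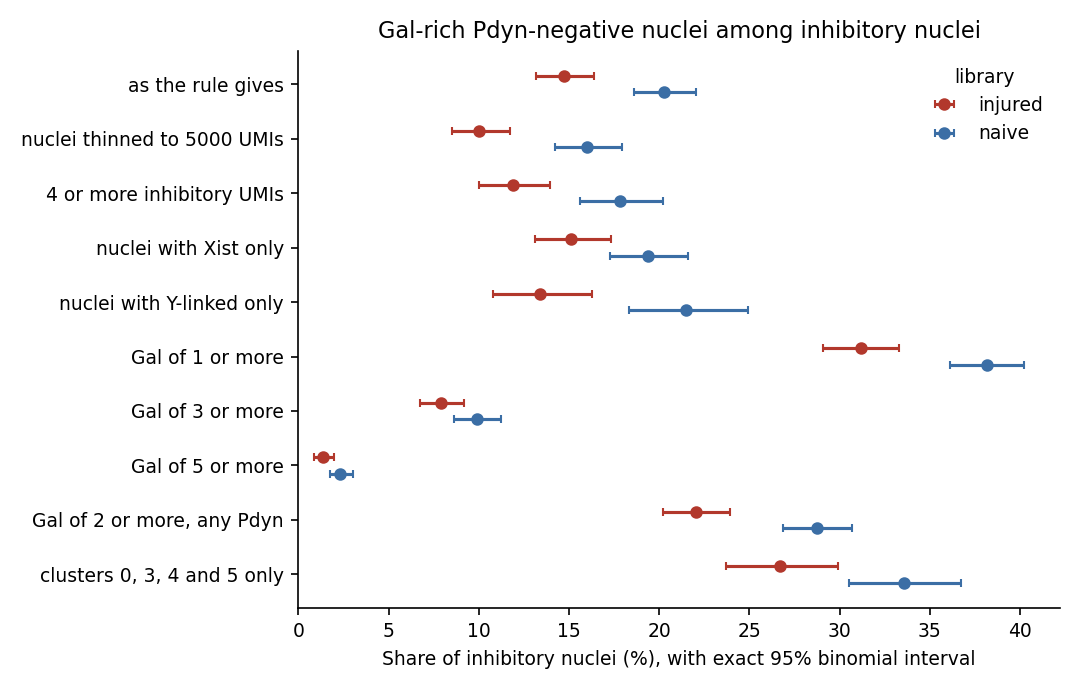
Share (percent) of inhibitory nuclei that were Gal-rich with no Pdyn UMI, in the injured (red) and naive (blue) library, by the rule and under 9 other settings; bars are exact 95% binomial intervals of the count of nuclei. The injured value was the lower in each setting drawn, at 14.7% against 20.3% by the rule and 10.0% against 16.0% after thinning.

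Within the Gal-rich Pdyn-zero nuclei, single genes were set side by side between injured and naive, with a ratio of CPM and an exact conditional binomial interval for counting error, and no test. Of 7293 genes with at least 100 UMIs, 40 (0.548%) had a ratio of at least 1.5 and 243 (3.33%) a ratio of at most 1/1.5, 3.88% in all, and with TMM factors the counts were 64 and 157. The median log2 ratio was -0.06, and -0.06 for the same genes in the other inhibitory nuclei, where 10 and 56 genes passed those ratios. Sums over fewer nuclei spread more by counting alone, so these counts are not compared between sets. The shift went with gene length. The median log2 ratio was -0.17, -0.09, -0.05 and 0.03 from the shortest to the longest of 4 equal classes of genes in Gal-rich Pdyn-zero nuclei, and -0.18, -0.09, -0.03 and 0.05 in the other inhibitory nuclei. Over all 7293 genes 2820 had a ratio above 1 and 4473 a ratio below 1. Of 47 ribosomal protein genes 44 lay below 1, with a median of -0.44, against -0.52 in the other inhibitory nuclei.

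The highest ratios held genes with and without a like ratio in the other inhibitory nuclei. Flrt2 (chr12:95692226-95785215), an adhesion and guidance gene, held 54.4 CPM in injured and 24.6 CPM in naive Gal-rich Pdyn-zero nuclei, with a ratio of 2.21 (1.65 to 2.98), and at 78.3 and 70.9 CPM in the other inhibitory nuclei, a ratio of 1.10. Kctd16, an auxiliary subunit of GABA-B receptors, held 209 and 116 CPM, or a ratio of 1.80 (1.57 to 2.07), and 312 and 281 CPM in the others, a ratio of 1.11. Zfp346, an RNA-binding zinc finger gene, had a ratio of 1.69 (1.28 to 2.23), against 0.907 in the others. Plekhg1 (1.85), Recql (1.78), Vwc2 (1.72) and Igf2bp2 (1.69) were also among the highest, and Plekhg1 had a ratio of 2.06 in the others.

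The 8 lowest named ratios ran from 0.445 to 0.488. Vav3, a guanine nucleotide exchange factor, was at 19.5 CPM in injured and 40.1 CPM in naive Gal-rich Pdyn-zero nuclei, a ratio of 0.488 (0.340 to 0.689), and at 42.1 and 37.6 CPM in the other inhibitory nuclei, a ratio of 1.12. Rims4, a gene of the presynaptic active zone family, was at 16.6 and 34.3 CPM, a ratio of 0.484, against 0.932 in the others. Atp2b4, a calcium pump, was at 19.97 and 43.95 CPM, a ratio of 0.454, against 0.635, and Nenf, a secreted neurotrophic factor, at 17.4 and 39.1 CPM, a ratio of 0.445, against 0.678. Rcl1, E4f1, Hnrnpul2 and Adrbk1 were the others of the 8. The difference in ratio between the sets was not tested. The highest and lowest genes were chosen by their ratio in the Gal-rich Pdyn-zero nuclei alone, which by itself favours ratios nearer 1 in the others.

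Gal, Pnoc and Penk had ratios below 1 in both sets. Gal had a ratio of 0.839 (0.768 to 0.916) in Gal-rich Pdyn-zero nuclei, where the rule sets its lower bound, and 0.679 in the other inhibitory nuclei. Pnoc was at 90.1 CPM in injured and 140 CPM in naive Gal-rich Pdyn-zero nuclei, a ratio of 0.645 (0.545 to 0.762), against 0.761 in the others. Penk had a ratio of 0.532 (0.392 to 0.716), against 0.577, and Cartpt 0.935 (0.722 to 1.21), against 1.24 (1.09 to 1.40). Nos1 had a ratio of 0.653, against 0.644. All 4 opioid genes measured lay below 1 (median log2 -0.44, against -0.37 in the others). The ratios of the receptor genes were near 1, at 0.904 (0.731 to 1.11) for Sstr2, 0.920 (0.777 to 1.09) for Oprm1 and 1.07 (0.908 to 1.25) for Tacr3. Rorb had a ratio of 1.34, against 1.16. Slc6a5 had a ratio of 0.716, against 1.07 in the others, and Alk, which the rule limits, 1.13, against 1.90. Beside the 2820 genes above 1 and 4473 below 1 over all genes, heat shock genes gave 2 ratios above 1 and 7 below, oxidative phosphorylation 3 and 13, glutamate receptors 15 and 7, and GABA and glycine receptors 11 and 4. The make-up of the set differed as well. Clusters 2 and 8, where Penk was highest and which Nos1 helps to lead, held 12.7% of the injured and 19.5% of the naive Gal-rich Pdyn-zero nuclei. The part of this in the ratios of Penk and Nos1 was not tested. Library depth, gene length, the share of short transcripts and this make-up differ between the libraries together with the treatment, and these cannot be told apart.

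**Figure D5:**
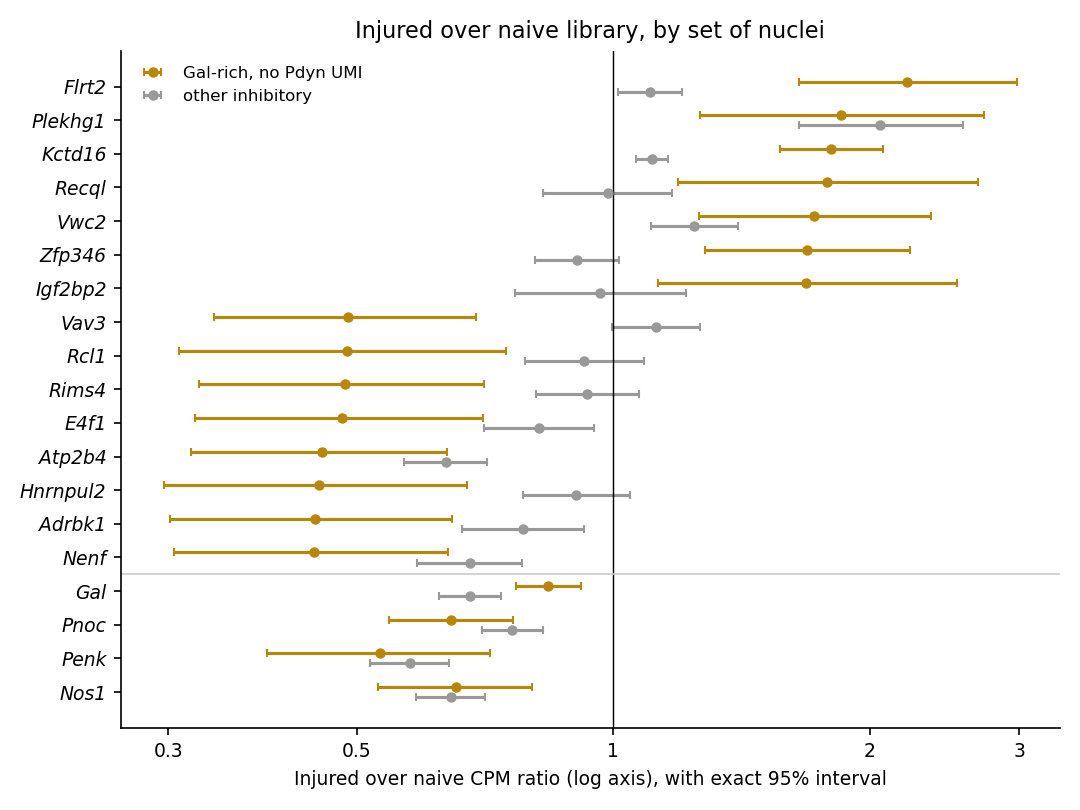
Ratio of injured over naive CPM (log axis, with exact 95% interval of counting error) for 19 genes in Gal-rich Pdyn-zero nuclei (gold) and other inhibitory nuclei (grey). Flrt2 and Kctd16, chosen for their ratio in the Gal-rich nuclei, were at 2.21 and 1.80 there and at 1.10 and 1.11 in the others. Gal, Pnoc, Penk and Nos1 were below 1 in both.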

How the data were processed

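Single-nucleus RNA was counted in 2 libraries, each of 1 pool of 8 mice, and per the submitters' processing notes Cell Ranger 3.0.2, Seurat (version not stated) and genome build mm10 were used. Which annotation served, whether introns were counted and how nuclei were filtered is not given in the sources. The authors deposited raw UMI counts for 19575 genes in 7610 nuclei, and natural log values that match ln(1 + 10000 x count / nucleus total). The counts gave every result, and the deposited natural log values were used only for that check. All nuclei were kept and doublets were not removed. Groups follow the labels.

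Nuclei were selected by the count rule stated above, and their counts were summed per library and set. Genes with at least 100 UMIs over the 4 sums were fitted with edgeR 4.0.16 (R 4.3.3; TMM factors, quasi-likelihood test, library block, Benjamini-Hochberg adjustment over all genes fitted, threshold 0.05). With 100 genes changed by 1.5-fold and 100 by 2-fold in simulated counts, the test recovered 53% and 80% for other inhibitory nuclei, 44% and 80% for Gal-rich Pdyn-positive nuclei, and 62% and 90% for Gal-low nuclei. DESeq2 1.42.0, other size factors, no low-count filter, no block, nuclei of 1 sex marker, other Gal minimums and leaving out libraries were alternatives. Clusters came from scanpy 1.11.5 (2000 variable genes, 30 principal components, 15 neighbours, Leiden resolution 1.0, with 121 genes kept out). Injured and naive sums were compared as CPM ratios, with exact 95% intervals that cover counting error only. A count of 0 was given a limit of 3 counts. Oligodendrocyte nuclei held at least 5 UMIs over a set of oligodendrocyte markers that includes Mog, Mag, Mobp and St18, and excitatory nuclei at least 2 Slc17a6 UMIs, both without inhibitory UMIs.

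Named genes were the 10 highest and 10 lowest log2 differences among those called, alike in direction in both libraries and detected in at least 10% of the nuclei of the higher set. For injured over naive they were the 8 highest and 8 lowest ratios alike in direction in Xist-only and Y-linked-only nuclei. From each list the largest and smallest could be named. Predicted, mitochondrial, ribosomal protein and Y-linked genes, Xist, Tsix and the genes of the rule were left out of these rankings. The nuclei, markers and gene lists were chosen with earlier results of these data known, and no annotation of nuclei by the authors was used here. Some genes that the naming rule selected are not reported here. Gene coordinates and lengths came from GENCODE annotation of mm10, in which 18777 genes were matched once, and RefSeq on GRCm38.p6 gave the promoter windows.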

Additional observations from a re-analysis of the deposited data

How the results depend on the processing

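The comparisons rest on 2 pooled libraries. Against other inhibitory nuclei DESeq2 called 230 higher and 366 lower, against Gal-rich Pdyn-positive nuclei 16 and 2, and against Gal-low Pdyn-zero nuclei 378 and 501. Without the library block, which pairs the sets of the same library, the calls were 338 and 673, 66 and 6, and 625 and 971, and the log2 value of Nos1 against Gal-low nuclei was 0.010. Every gene called by DESeq2 or without the block was also called by the edgeR test with the block. Pax5 and Gata3 had no UMI in injured Gal-rich Pdyn-zero nuclei, so that no value came from the injured library alone. No paired analysis was possible because the injured and naive groups hold 1 pool each and their mice have no numbers; this concerns the injured over naive ratios. Leaving out 1 library leaves no residual degree of freedom, so those are values without a test: against Gal-rich Pdyn-positive nuclei Pnoc ranged from -0.27 to 0.41 and Sstr2 from -0.17 to 0.040 (log2).

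In nuclei with Y-linked UMIs only, the calls were 279 and 456, 42 and 13, and 414 and 599 in those comparisons. With Xist only they were 627 and 822, 195 and 116, and 927 and 1121. Against other inhibitory nuclei the log2 values in Y-linked-only nuclei were -0.20 for Nos1, -0.080 for Cartpt and 0.27 for Htr2a, and against Gal-rich Pdyn-positive nuclei -0.054 for Pnoc and 0.46 for Sdk1. Against Gal-low nuclei Nos1 was at 0.21 in Xist-only nuclei and at 0.0084 without nuclei that held both markers.

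With Gal of at least 3 UMIs the calls against Gal-rich Pdyn-positive nuclei were 42 and 9, and against other inhibitory nuclei Nos1 was at -0.073 and Cartpt at -0.064. With at least 5 UMIs the calls were 244 and 404, 10 and 13, and 361 and 531. Against other inhibitory nuclei Nos1 was then at -1.36, Cartpt at -0.86 and Gabra2 at -0.033. Against Gal-rich Pdyn-positive nuclei Pnoc was at -0.30, Rab3c at -0.026, Grm8 at 0.58, Kcnk2 at 0.10, Plxna4 at 0.018, Sdk1 at 0.54 and Htr2c at -0.14.

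Kept to clusters 0, 3, 4 and 5, an alternative added after seeing the data, the calls were 35 and 75, 18 and 11, and 140 and 221. Against other inhibitory nuclei the log2 values were then -0.14 for Pnoc, 0.037 for Penk, -0.61 for Nos1, 0.10 for Npy, -0.21 for Cartpt, 0.20 for Chga, -0.017 for Pcsk5, 0.26 for Gabra5, -0.076 for Gabra2, -0.12 for Gabrg1, 0.39 for Kcna1, 0.012 for Cdh12, -0.024 for Unc5c and 0.061 for Htr1f. Sstr2 was at 0.14 against Gal-rich Pdyn-positive nuclei, and Sgcd at 0.12 and Pnoc at -0.21 against Gal-low nuclei. The causes of these shifts were not tested, beyond the smaller number of nuclei in each.

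The injured share was the lower in every setting run. The injured and naive shares were 10.0% and 16.0% after thinning to 5000 UMIs, 31.2% and 38.2% with Gal of at least 1, 7.90% and 9.87% with at least 3, and 1.35% and 2.32% with at least 5, where the ratio was 0.583. With at least 4 inhibitory UMIs they were 11.9% and 17.8%, within clusters 0, 3, 4 and 5 26.7% and 33.6%, and whatever the Pdyn count 22.03% and 28.7%. Ratios of injured over naive of at least 1.5, and of at most 1/1.5, numbered 64 and 157 with TMM factors, 118 and 573 from 50 UMIs and 18 and 71 from 200 UMIs. Ratios of at most 1/1.5 numbered 104 in Y-linked-only nuclei, 159 with Gal of at least 3 and 32 with at least 5, where Vwc2 was at -1.14 and Igf2bp2 at -0.55 (log2). Depth limits genes of few UMIs: a gene under 100 UMIs over the 4 sums was not tested.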
